A study of Mus musculus with 473 samples.

Results

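The nuclear genes for the subunits of oxidative phosphorylation were examined in single neurons sorted from the brains of Th:EGFP mice. They were chosen by gene symbol, and no measured value entered the rule, though earlier results of these data were known. The rule took protein-coding rows whose symbol names a subunit of complex I (Nduf genes, without the Ndufaf assembly factors), complex II (Sdh), complex III (Uqcr), complex IV (Cox4 to Cox8) or ATP synthase (Atp5). This gave 84 of the 28952 features, of which 35 belong to complex I, 4 to complex II, 8 to complex III, 20 to complex IV and 17 to ATP synthase, also called complex V. Ndufa4 and its paralog Ndufa4l2 carry the name of complex I but are counted with complex IV, where the Ndufa4 protein is now placed. The symbols also take in Atp5s and Cox7a2l, which are coupling or assembly factors by their known roles rather than structural subunits. They leave out Ndufab1 of complex I and Usmg5 of ATP synthase, which are subunits by their known roles.

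The cells carried a bacterial artificial chromosome in which regulatory sequence of Th (tyrosine hydroxylase) drives enhanced green fluorescent protein, on the outbred Swiss Webster background, so the reporter and not the Th transcript defined them. The 5 groups were forebrain and midbrain at embryonic day 15.5 (E15.5) and forebrain, midbrain and olfactory bulb at postnatal day 7 (P7), and the labels give the hypothalamus as the forebrain region. Tissue of 4 embryos or of 5 pups was pooled for each region, so each group is 1 pool of animals, cells are not replicates of it, and no difference between groups was tested. P7 tissue was dissociated for longer than E15.5 tissue and was also passed through a density gradient. Age, dissociation, sorting day and library plate therefore cannot be told apart.

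Of 473 cells, 396 passed the authors' quality control. On 3 of the 5 library plates the gene number in a cell's label matched the genes in the column of the same name (r = 0.996 to 0.999 across cells). On the other 2 plates, both of P7, it did not (r = -0.0338 and -0.0519) until the columns of these plates were exchanged well by well (r = 0.999 for each). The first values given below use the 249 cells of the name-matched plates (84 E15.5 forebrain, 88 E15.5 midbrain, 31 P7 forebrain, 30 P7 midbrain and 16 P7 olfactory bulb). Values of the 147 cells of the exchanged plates (50 P7 forebrain, 45 P7 midbrain and 52 P7 olfactory bulb) follow as a second set of cells from the same pools. Summed FPKM per cell differed by group and plate, with plate medians of 691823 to 1154260 at E15.5 and of 191477 to 545503 at P7. A noncoding locus, AY036118, took a median of 5.56% to 8.67% of a cell's FPKM at E15.5 and of 10.6% to 32.2% on the P7 plates. Values were therefore also given after each cell was scaled to a nuclear protein-coding total of 1000000, called rescaled FPKM below, a scale added after this locus was seen. Each of the 5 neuronal markers (Tubb3, Snap25, Syt1, Stmn2 and Map2) had a mean of at least 1 FPKM in every group. The 4 dopaminergic markers had summed FPKM medians of 15.6 and 10.7 in E15.5 forebrain and midbrain and of 580, 4413 and 2100 in P7 forebrain, midbrain and olfactory bulb. Microglial, endothelial, blood and dividing-cell markers had summed medians of 0, and of the 5 astrocyte markers only Aldoc was found in most P7 forebrain cells (71%). The 6 oligodendrocyte-lineage markers had summed medians of 2.96 and 11.4 FPKM in E15.5 forebrain and midbrain. In P7 forebrain, midbrain and olfactory bulb their medians were 10, 5.13 and 0.436, and 1.7, 0.377 and 0 on the exchanged plates.

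Oxidative phosphorylation passes electrons from NADH through complex I, or from succinate through complex II, to complex III and on to complex IV, which reduces oxygen. The proton gradient built on the way drives ATP synthase. Complexes I, III and IV and ATP synthase are assembled from subunits of the nuclear and of the mitochondrial genome, whereas complex II is wholly nuclear. Neurons depend on this pathway for most of their ATP, and many accessory subunits are small proteins from short transcripts.

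Most of these genes were detected in most cells of each group, least often in the P7 olfactory bulb. As a share of nuclear protein-coding FPKM their joint level was lowest at E15.5 and highest in the P7 olfactory bulb, whereas their summed FPKM as deposited was highest at E15.5, with a median per cell of 35964 in forebrain and 34482 in midbrain against 23732, 21092 and 26401 in P7 forebrain, midbrain and olfactory bulb. A mean of at least 20 FPKM was reached in every group by 75 of the 84 genes, and only 4 (Cox4i2, Cox8b, Cox8c and Ndufa4l2) had a mean under 1 FPKM in all of them. A gene counts as found in a cell at 1 FPKM or more. By that measure 68 members were found in at least 90% of E15.5 forebrain cells, 75 in E15.5 midbrain, 67 in P7 forebrain, 75 in P7 midbrain and 43 in P7 olfactory bulb. The olfactory bulb cells also had fewer genes of any kind, with a median of 3310 genes per cell in the labels against 5164 in P7 forebrain and 6127 in P7 midbrain.

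The summed FPKM of the 84 genes was set against the FPKM of all nuclear protein-coding genes in the same cell. In E15.5 forebrain cells the share ran from 1.53% to 6.00% with a median of 3.76%, and in E15.5 midbrain cells from 2.37% to 5.49% with a median of 3.99%. In P7 forebrain it ran from 3.63% to 8.58% (median 5.57%), in P7 midbrain from 3.69% to 6.53% (median 5.15%) and in P7 olfactory bulb from 3.96% to 17.4% (median 8.60%). The exchanged plates had medians of 5.06% in forebrain, 4.97% in midbrain and 6.49% in olfactory bulb. Cells of the groups overlapped, but the plate medians did not overlap between ages: they were 3.71% to 4.02% at E15.5, 4.65% to 5.57% in P7 forebrain and midbrain, and 5.94% to 8.60% in the olfactory bulb. On each of the 3 P7 plates the olfactory bulb had the highest median. Out of all nuclear and noncoding FPKM except mitochondrially encoded genes, the medians were 3.35% and 3.52% in E15.5 forebrain and midbrain, 4.79%, 4.37% and 6.93% in P7 forebrain, midbrain and olfactory bulb, and 3.41%, 3.37% and 4.19% on the exchanged plates. On that total the medians of the exchanged P7 forebrain and midbrain cells were close to those of E15.5, on plates where AY036118 took 22.2% to 32.2% of the FPKM. Across cells of a group and plate, the rank correlation of the coding share with the number of genes per cell was 0.001 to 0.594 (16 to 45 cells each), given as a description of cells that share a library preparation.

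**Figure D1:**
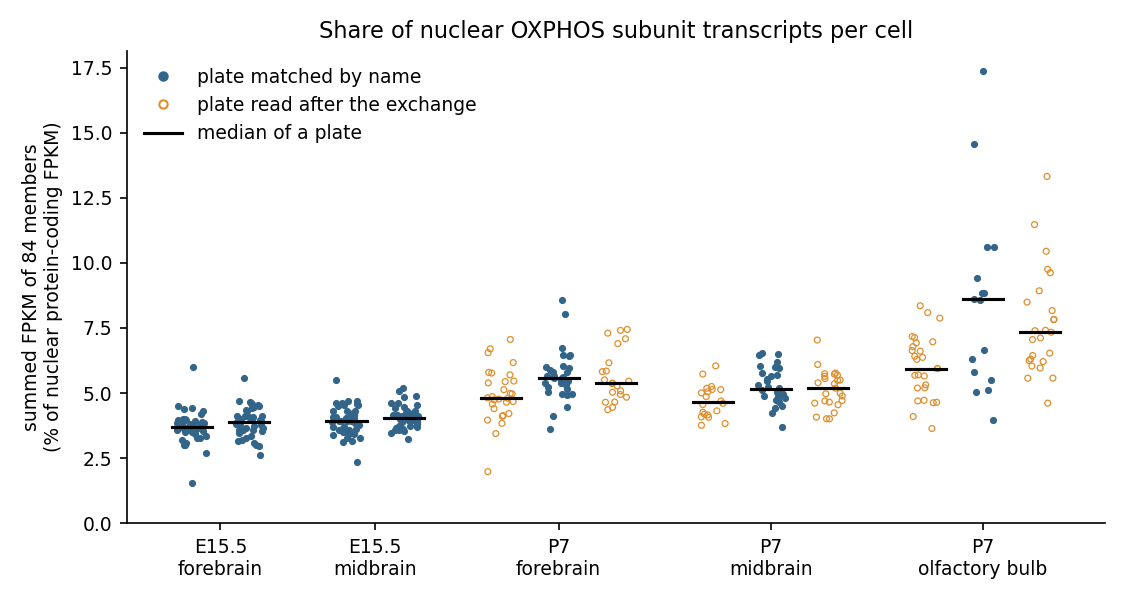
Each point is 1 cell, the vertical axis is the summed FPKM of the 84 subunit genes as a percent of the cell's nuclear protein-coding FPKM, and each strip is a group on 1 library plate with a bar at its median. The E15.5 strips have medians of 3.71% to 4.02%, and the highest strips are those of the P7 olfactory bulb at 5.94% to 8.60%.

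Ndufa4 (ENSMUSG00000029632.7; chromosome 6, 11900292 to 11907497, minus strand, GRCm38), a subunit of complex IV, was found in every cell. Its FPKM ran from 110 to 5247 (median 937) in E15.5 forebrain, from 24.2 to 5121 (median 886) in E15.5 midbrain, from 539 to 1847 (median 1038) in P7 forebrain, from 209 to 1426 (median 864) in P7 midbrain and from 822 to 6542 (median 1330) in P7 olfactory bulb. On these plates the ages were alike as deposited and the olfactory bulb was highest. On the exchanged plates the deposited medians of Ndufa4 were lower, at 359 in forebrain, 306 in midbrain and 523 in olfactory bulb. Rescaled FPKM of Ndufa4 was 1168 ± 531 (mean ± SD over 84 cells) in E15.5 forebrain, 1184 ± 501 (88 cells) in E15.5 midbrain, 2557 ± 888 (31 cells) in P7 forebrain, 2067 ± 680 (30 cells) in P7 midbrain and 5596 ± 3298 (16 cells) in P7 olfactory bulb. The exchanged plates gave 2445 ± 948, 2158 ± 791 and 4257 ± 2340 in the 3 P7 groups, with midbrain lowest and olfactory bulb highest in both sets of cells. Of the FPKM of all 84 genes, Ndufa4 took a median of 3.06% and 2.84% in the E15.5 groups and of 4.13%, 3.79% and 6.46% in P7 forebrain, midbrain and olfactory bulb.

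Cox6c (ENSMUSG00000014313.14; chromosome 15, 35925886 to 35938246, minus strand), another complex IV subunit, was also found in every cell. Its rescaled FPKM was 740 ± 315 in E15.5 forebrain, 778 ± 277 in E15.5 midbrain, 1217 ± 523 in P7 forebrain, 1020 ± 343 in P7 midbrain and 2343 ± 2000 in P7 olfactory bulb. The exchanged plates gave 1021 ± 553, 889 ± 370 and 1777 ± 1080. In the 16 olfactory bulb cells of the matched plate 1 cell held 26.5% of the summed Cox6c FPKM, and the P7 forebrain and midbrain values differed by less than the spread between cells. Cox7c (ENSMUSG00000017778.14; chromosome 13, 86044816 to 86046904, minus strand), a small subunit of the same complex, had lower and more scattered values and was not found in some cells of most groups. Its rescaled FPKM was 405 ± 326 in E15.5 forebrain, 275 ± 259 in E15.5 midbrain, 430 ± 339 in P7 forebrain, 235 ± 213 in P7 midbrain and 868 ± 708 in P7 olfactory bulb. Midbrain was the lowest region for Cox7c at each age, while for Cox6c and Ndufa4 the E15.5 regions were nearly equal.

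**Figure D2:**
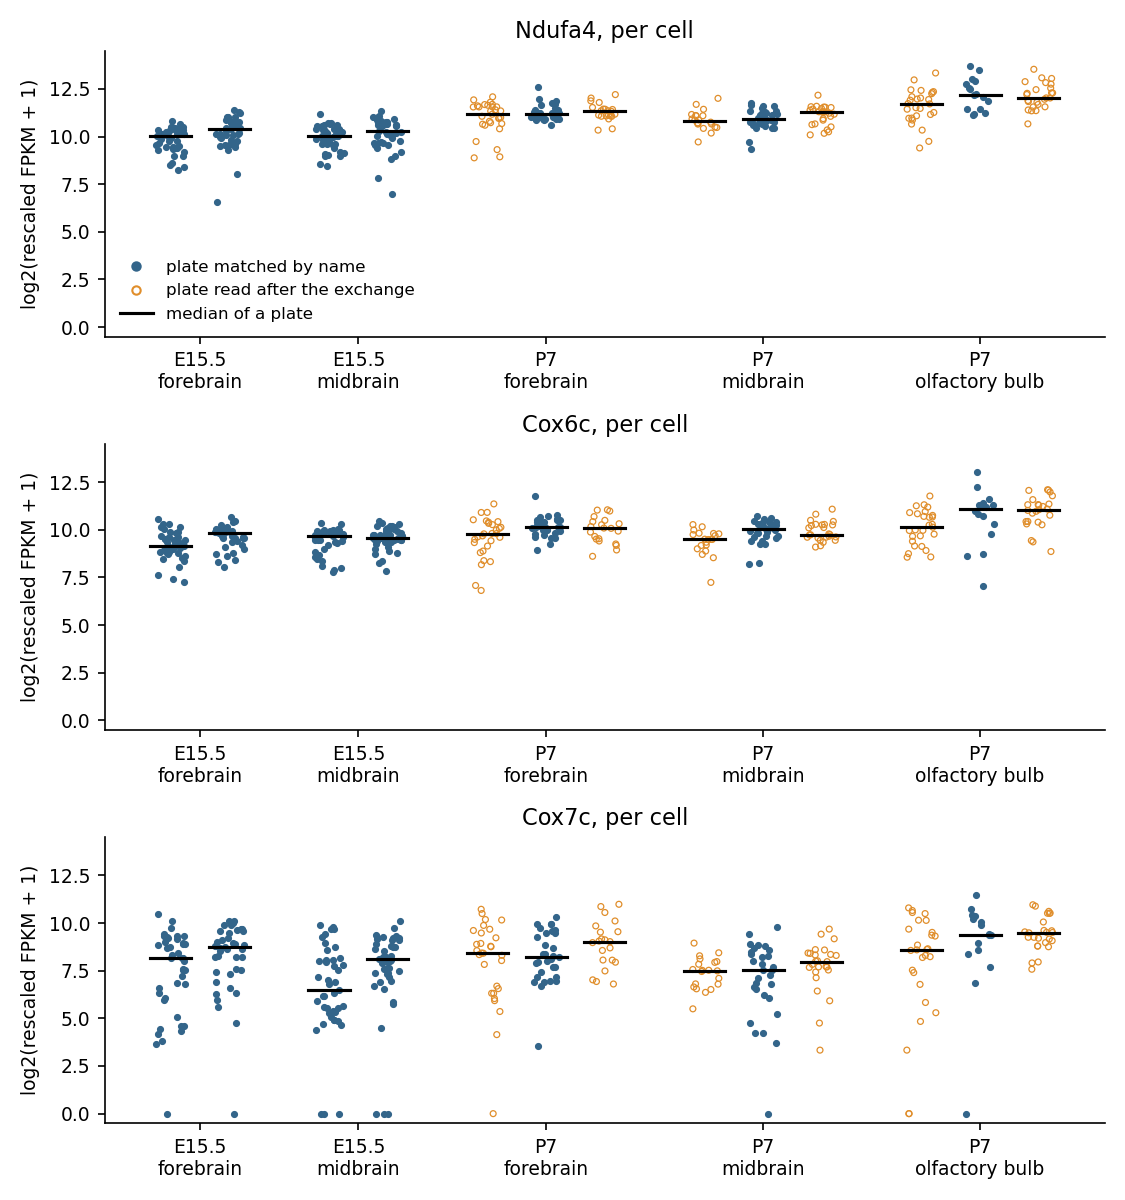
Ndufa4, Cox6c and Cox7c in each cell, on a log2(rescaled FPKM + 1) axis, by group and library plate with a bar at the plate median. Ndufa4 and Cox6c are found in every cell and are highest in the olfactory bulb, while Cox7c reaches 0 in some cells and is lowest in the midbrain.

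Group means of the members in forebrain and midbrain at E15.5 differed by less than 2-fold as deposited. On the deposited scale none of the 78 members that reached a mean of 1 FPKM was 2-fold higher or lower in midbrain, where 8.46% of all genes tested were at least 2-fold higher and 9.41% lower. Among genes detected as well as the members (mean of at least 20 and found in at least 50% of cells), 1.49% were higher and 2.23% lower. A log2 fold here is the log2 of the ratio of group means, each with 1 FPKM added. The member median was -0.02 against -0.12 over all genes. On the rescaled scale 3 of 79 were higher and 0 lower, against 8.54% and 7.45% of all genes, with a median of 0.08. Members named next have a mean of at least 20 and were found in at least 50% of cells. As deposited, the members furthest toward midbrain were Atp5d, a subunit of the central stalk of ATP synthase, at a log2 fold of 0.37, and the complex I genes Ndufs8 (0.32) and Ndufs6 (0.31), followed by Sdhd, a membrane anchor of complex II, and Cox8a, a small subunit of complex IV, both at 0.25. Furthest toward forebrain, also as deposited, were Cox7c at -0.77, the complex I accessory gene Ndufa12 at -0.36, Cox7a2l at -0.35, Ndufc1, also accessory to complex I, at -0.32 and Atp5g2, which encodes a copy of the ATP synthase c-ring protein, at -0.29. In rescaled FPKM, Atp5d was 392 ± 234 in forebrain and 532 ± 263 in midbrain, so that these values lay within the spread between cells. On both library plates 32 of 76 members were higher in midbrain on the rescaled scale and 16 were lower. The 76 have a mean of at least 20 rescaled FPKM over all cells that passed quality control, with no minimum share of cells. No matching count over all genes is given. By the mean of log2(rescaled FPKM + 1) over cells, 66 of 76 were higher in midbrain (median 0.22), and among only the cells in which a gene was found 42 were higher and 34 lower (median 0.03). The fold of Cox7c was -0.65 and -0.51 on the 2 plates, that of Atp5d 0.37 and 0.51 and that of Ndufs8 0.36 and 0.39.

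Between E15.5 and P7 the direction depended on the scale. On the deposited scale the subunit genes were lower at P7, but less so than most genes. In forebrain 12 of 79 tested members were at least 2-fold lower at P7 and 3 were higher, against 58.8% and 6.73% of all genes, and the member median was -0.59 against -1.20 over all genes. In midbrain 14 of 78 were lower and 0 higher, against 58.4% and 5.23%, with a median of -0.65 against -1.18. The deposited values of the exchanged plates were lower still, beside the smallest sums per cell: 75 of 77 members in forebrain and 75 of 78 in midbrain were 2-fold lower and 0 higher, against 87% and 87.2% lower and 1.41% and 1.25% higher over all genes. The member medians were -2.12 and -2.13 and the all-gene medians -2.28 and -2.16. On the rescaled scale 15 of 79 members were at least 2-fold higher at P7 in forebrain and 0 lower, against 17.5% and 25.9% of all genes, with a median of 0.65 against -0.20. In midbrain 8 of 79 were higher and 1 lower, against 14.6% and 25.4%, with a median of 0.40 against -0.24. The exchanged plates gave rescaled medians of 0.52 in forebrain, with 12 of 79 members higher and 0 lower, and 0.34 in midbrain, with 7 of 80 higher and 0 lower, against 19.1%, 21.3%, 16% and 21% of all genes. The shares of members 2-fold higher were near or below those of all genes, while 0 to 1 member was 2-fold lower, and the medians of the list lay above those of all genes. Among the 5592 forebrain genes detected as well as these members, 80.8% had a rescaled fold below the member median of 0.59, and in midbrain 75.5% of 6429 genes lay below 0.39.

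The median of each complex was above 0 in both regions, and that of complex II was the lowest. By rescaled log2 fold at P7 over E15.5, 33 of 35 complex I genes were above 0 in forebrain (median 0.66), as were 3 of 4 complex II genes (0.23), 8 of 8 complex III genes (0.63), 11 of 12 complex IV genes (0.57) and 16 of 16 ATP synthase genes (0.52). In midbrain the counts were 29 of 35 (median 0.38), 3 of 4 (0.18), 8 of 8 (0.50), 10 of 12 (0.37) and 15 of 17 (0.51). On the exchanged plates the medians of complexes I to V were 0.52, 0.41, 0.44, 0.45 and 0.58 in forebrain. They were 0.37, 0.12, 0.31, 0.18 and 0.45 in midbrain. The share of all genes above 0 is not given. Each P7 plate was also set against each E15.5 plate, which makes 6 plate pairs per region. In all 6 pairs 57 of 76 members were above 0 in forebrain and only Ndufb9, an accessory subunit of complex I, was below. In midbrain 43 were above in all 6 pairs and 4 were below. The pairs reuse the same plates and pools, and no matching count over all genes is given. The mean of log2(rescaled FPKM + 1), which counts every cell alike, gave the same sign as all 6 plate pairs for 50 of the 57 forebrain members and for all 43 of the midbrain.

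Among the genes furthest up at P7 on the rescaled scale were small accessory subunits. Ndufa6, an accessory subunit of complex I, was at 258 ± 188 rescaled FPKM in E15.5 forebrain, 629 ± 381 in P7 forebrain and 689 ± 359 on the exchanged plates, log2 folds of 1.28 and 1.41. In midbrain it was at 304 ± 183, 591 ± 238 and 592 ± 275. Plate pairs ran from 1.26 to 1.60 in forebrain and from 0.63 to 1.21 in midbrain, so no plate pair was at or under 0. Ndufa13 (GRIM-19), a complex I subunit also known for its part in cell death, ran from 0.84 to 1.37 in forebrain and from 0.61 to 1.09 in midbrain. Atp5g1, a second gene for the c-ring protein, ran from 0.88 to 1.34 and from 0.80 to 1.26, and Ndufa4 from 0.76 to 1.42 and from 0.59 to 1.13. Further complex I accessory genes with no plate pair under 0.50 in either region were Ndufs5, Ndufb2, Ndufb3, Ndufc1 and Ndufc2. Atp5s was found in only 23.8% of E15.5 forebrain and 40.9% of E15.5 midbrain cells, and its plate-pair folds of 0.80 to 2.64 in midbrain rest on few cells.

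Other members were near 0 or below it in at least 1 region. Sdha (ENSMUSG00000021577.13; chromosome 13, 74322254 to 74350280, minus strand), the flavoprotein of complex II that oxidises succinate, was at 291 ± 134 rescaled FPKM in E15.5 midbrain, 227 ± 130 in P7 midbrain and 206 ± 134 on the exchanged plates, and its 6 plate pairs ran from -0.64 to -0.30. In forebrain it was at 277 ± 170, 262 ± 190 and 323 ± 171, with no single direction. The other complex II genes went elsewhere: Sdhc, a membrane anchor, ran from 0.58 to 1.31 in forebrain and from 0.40 to 0.81 in midbrain, while Sdhb, the iron-sulfur subunit, had log2 folds of 0.21 and 0.01 in the 2 regions. Atp5b and Atp5a1, the beta and alpha subunits of the ATP synthase head, were below 0 in all 6 midbrain pairs (-0.29 to -0.02 and -0.43 to -0.11), as was Ndufa10 of complex I (-0.30 to -0.15). Cox6a1, a subunit of complex IV found in nearly every cell, had forebrain pairs from -0.55 to 0.05. On the deposited scale, members past 2-fold lower at P7 included Sdha (-1.18 in forebrain and -1.37 in midbrain), Ndufa10 (-1.18 and -1.32), Cox6a1 (-1.21 and -1.17), Ndufv1 (-1.07 and -1.36), Atp5a1 (-1.03 and -1.24) and Atp5b (-1.02 and -1.14). The highest deposited folds were Ndufb4 (0.23), Ndufb3 (0.19) and Ndufa13 (0.04) in forebrain and Atp5s (0.29), Ndufs5 (0.11) and Ndufc1 (0.11) in midbrain.

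**Figure D3:**
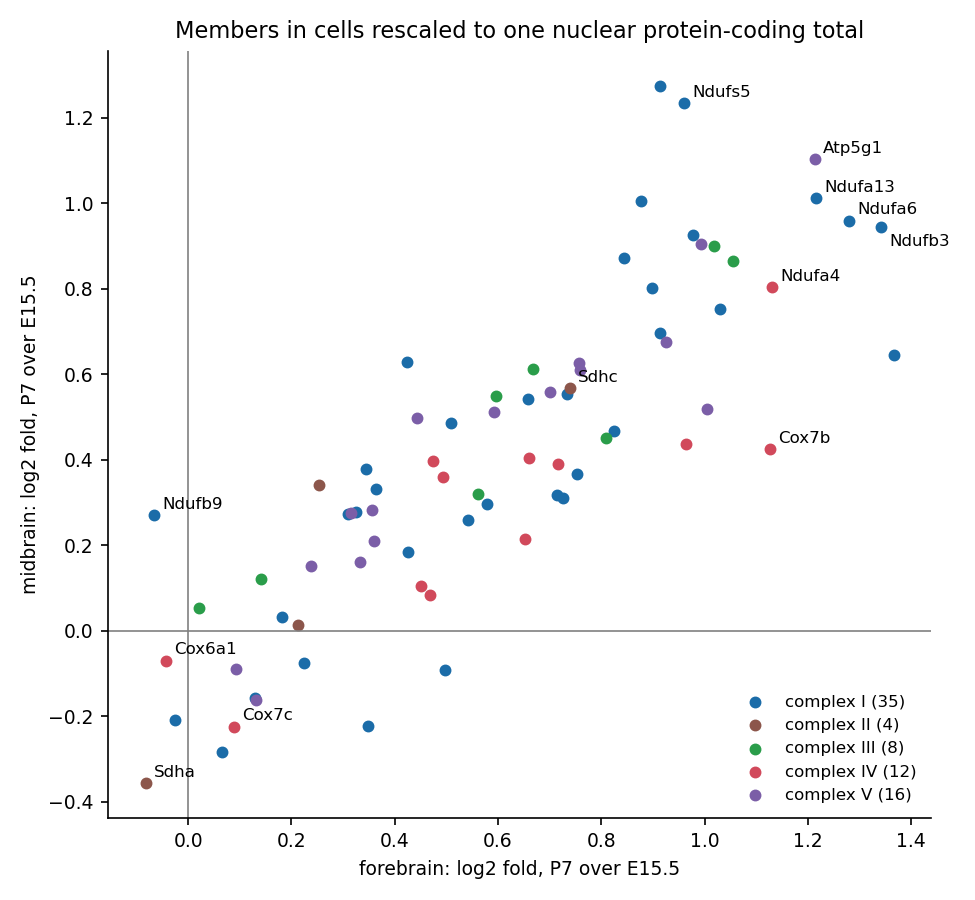
Each point is 1 of 75 members, with its rescaled log2 fold of P7 over E15.5 in forebrain on the horizontal and in midbrain on the vertical axis, coloured by complex, from the name-matched plates. In both regions 63 members lie above 0 and 3 below, with Sdha lowest in each.

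Core and accessory genes of complex I had different medians. The 7 nuclear core subunits, which carry the electron path, had a rescaled median of 0.50 in forebrain with 6 above 0, and the 28 accessory subunits a median of 0.72 with 27 above 0. In midbrain the medians were 0.03 (4 of 7 above 0) and 0.55 (25 of 28), and on the exchanged plates 0.30 and 0.56 in forebrain and -0.03 and 0.42 in midbrain. Over all genes, length moved with the fold. By the median over a gene's protein-coding transcripts, the members have a median length of 655 bases, and 65 of 84 are under 1000 bases, while coding genes at 20 FPKM or more have a median of 1769 bases. In forebrain the 56 members under 1000 bases had a median of 0.68 against -0.01 for the 1180 other genes of that length, and the 19 longer members 0.32 against -0.32 for 4337 genes. In midbrain the figures were 0.49 against -0.01 and 0.26 against -0.26. Members were thus above other genes in each class of length, and shorter transcripts were above longer ones in members and other genes alike. The length takes in every annotated protein-coding transcript of a gene, so its class may differ from that of the transcript in these cells. It was 651 bases for Ndufs1 and 533 for Uqcrc1, but 2413 for Ndufb2 and 2675.5 for Atp5g1. The part of length in the members' folds was not tested.

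Most of these genes had higher means in the olfactory bulb than in midbrain or forebrain at P7, and the complex with the lowest median fold depended on the plates. On the deposited scale 13 of 80 tested members were at least 2-fold lower in midbrain than in olfactory bulb and 1 was higher, against 20.3% and 29.8% of all genes, so that the share of members lower was near the background while few were higher. The member median was -0.54, and that of all genes 0.13. In forebrain 8 of 80 were lower and 2 higher, against 18% and 31.1%, with a median of -0.47 beside 0.22. The rescaled medians were -0.58 and -0.47, with 12 and 8 members lower and 1 higher in each, against 21.5% and 19.7% lower and 33% and 33.1% higher over all genes. On the exchanged plates they were -0.42 and -0.31, with 3 and 2 of 80 lower and 1 higher in each, against 23.9% and 21.8% lower and 22.3% and 22.5% higher over all genes. Both comparisons share the olfactory bulb cells, so they are not independent of each other.

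Among the members past 2-fold in midbrain on the deposited scale were Cox7c (-1.94), Ndufa4 (-1.49), Atp5l (-1.41), Cox6c (-1.23), Atp5g2 (-1.22), Ndufa12 (-1.16), Cox7a2 (-1.14), Cox5a (-1.08) and Cox8a (-1.07). In forebrain they included Atp5l (-1.26), Ndufa4 (-1.19), Atp5h (-1.12), Uqcrq (-1.11), Ndufa12 (-1.05) and Ndufs1 (-1.03). Atp5l encodes a subunit of the membrane part of ATP synthase, Atp5h one of its peripheral stalk and Uqcrq a subunit of complex III. Rescaled FPKM of Atp5l was 945 ± 970 in olfactory bulb, 399 ± 319 in forebrain and 379 ± 257 in midbrain, and on the exchanged plates 787 ± 614, 408 ± 290 and 411 ± 274. A single cell held 32.8% of the summed Atp5l FPKM of the olfactory bulb on the matched plate. Its folds on the 3 plates ran from -1.24 to -0.72 in forebrain and from -1.32 to -0.85 in midbrain. Uqcrq was at 2854 ± 1712, 1283 ± 704 and 1509 ± 591. Cox8a was at 3648 ± 2202, 1987 ± 770 and 1697 ± 486. Atp5b, the most abundant member of ATP synthase, was at 3543 ± 1503, 2159 ± 836 and 2047 ± 476, and at 3268 ± 1366, 2083 ± 909 and 1936 ± 592 on the exchanged plates. The standard deviations of the olfactory bulb are larger than those of the other regions, and the cells overlap for each of these genes.

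A few complex I genes went the other way or stayed level. Ndufa7, an accessory subunit, was above its olfactory bulb mean on all 3 plates, by 0.30 to 0.79 in forebrain and 0.17 to 0.65 in midbrain, with 704 ± 510 rescaled FPKM in olfactory bulb, 874 ± 508 in forebrain and 825 ± 340 in midbrain. Ndufs8, a core subunit, was higher in midbrain on each plate (0.15 to 0.27), and the accessory genes Ndufa6 and Ndufb2 in forebrain (0.06 to 0.38 and 0.03 to 0.66). By the deposited values the highest members were Atp5s (0.80), Ndufs8 (0.39), Ndufa7 (0.37), Ndufb3 (0.30) and Uqcrc2 (0.28) in midbrain and Ndufb3 (0.68), Ndufs3 (0.56), Ndufb4 (0.49), Ndufs8 (0.37) and Ndufa7 (0.36) in forebrain. By complex, the rescaled median in midbrain over olfactory bulb was -0.33 for complex I, -0.17 for II, -0.59 for III, -0.99 for IV and -0.76 for V, and in forebrain -0.25, -0.24, -0.57, -0.80 and -0.70. On the exchanged plates the medians were -0.26, -0.28, -0.45, -0.70 and -0.42 in midbrain and -0.20, -0.08, -0.50, -0.42 and -0.42 in forebrain, so that complex III and not complex IV was lowest in forebrain.

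The direction for the olfactory bulb turned with the summary used. When log2(rescaled FPKM + 1) was averaged over cells in place of FPKM, 46 of 76 members were higher in midbrain than in olfactory bulb (median 0.26) and 54 on the exchanged plates (0.51), and in forebrain 35 were higher (-0.09) and 45 on the exchanged plates (0.22). Among only the cells in which a gene was found, 73 of 76 were lower in midbrain (median -0.71) and 71 in forebrain (-0.54), and 72 and 68 on the exchanged plates. Where a gene was found, most members thus had a higher mean rescaled FPKM in the olfactory bulb. In more of its cells a gene was not found, beside their lower number of genes of any kind. These counts were not set against all genes, and the part of the lower gene number was not tested. For 18 members midbrain was lower on every plate and by the averaged logs of both sets of cells, and for 25 forebrain was. No matching count over all genes is given. The 18 hold 8 of 12 complex IV genes (Ndufa4, Cox4i1, Cox5a, Cox6b1, Cox6c, Cox7a2, Cox7c and Cox8a). They hold 7 of 17 ATP synthase genes (Atp5a1, Atp5b, Atp5c1, Atp5e, Atp5h, Atp5l and Atp5o), with Ndufa13, Uqcr11 and Uqcrq beside them. Averaged logs also count cells in which a gene is not found. Ndufa10 of complex I, found in 68.8% of matched olfactory bulb cells, was at -0.82 where found but at 1.56 by averaged logs in midbrain. The part of detection in this tally was not tested. Of the 25 in forebrain, 10 belong to ATP synthase, 7 to complex IV and 5 to complex I. The averaged-log difference of Ndufa4 was -1.30 and -0.85 in midbrain and -0.97 and -0.72 in forebrain.

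**Figure D4:**
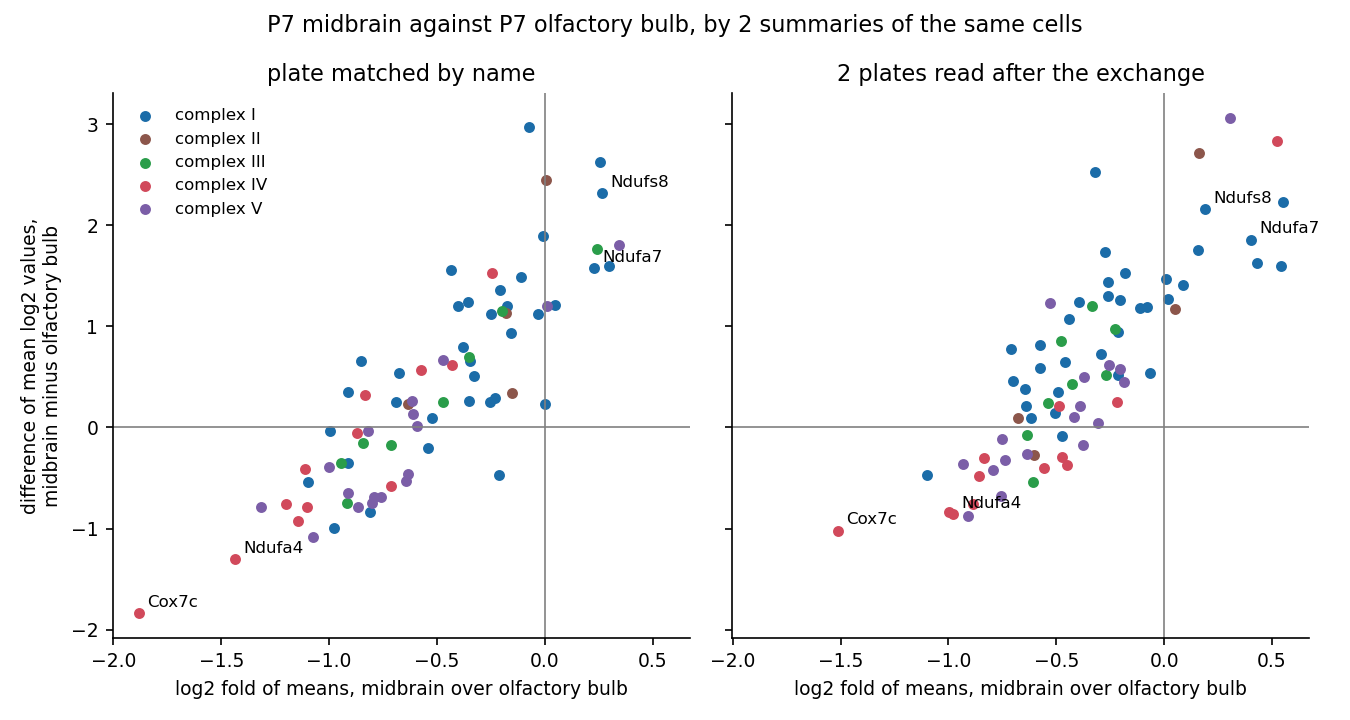
Each point is a member, with the log2 fold of mean rescaled FPKM of P7 midbrain over olfactory bulb on the horizontal and the difference of mean log2(rescaled FPKM + 1) on the vertical axis. Most members lie left of 0, but 46 of 76 on the matched and 54 on the exchanged plates lie above 0, and Ndufa4 and Cox7c lie low on both axes.

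Few members differed 2-fold between forebrain and midbrain at P7. On the deposited scale 0 of 79 members were 2-fold higher in midbrain and 1 lower, against 10.8% and 13.8% of all genes, with a median of -0.10 beside -0.08. On the rescaled scale the counts were 0 and 1 (15.3% and 16.6% of all genes), and on the exchanged plates 1 and 2 of 80 (13.3% and 14.9%). As deposited, the lowest members were Cox7c (-0.95), Atp5g2 (-0.65), Ndufs3 (-0.61), Ndufb4 (-0.59) and Ndufa1 (-0.49), and the highest Sdhd (0.32), Atp5d (0.29), Ndufa5 (0.28), Ndufb9 (0.26) and Uqcrq (0.25). Cox7c was between -1.31 and -0.87 on the 3 plates by rescaled FPKM, and its exchanged-plate levels were 550 ± 496 in forebrain and 240 ± 164 in midbrain. Sdhd and Atp5d, on the high side at both ages, were not above 0 on all 3 P7 plates (-0.16 to 0.41 and -0.27 to 0.27). Of 76 members, 34 were lower in midbrain on each plate and 6 higher, though by averaged logs only 12 of the 34 kept their sign in both sets of cells. No matching count over all genes is given. By averaged logs the direction of the list turned, with 52 of 76 members higher in midbrain (median 0.18) and 51 on the exchanged plates (0.15). All 12 well-detected complex IV genes were below 0 on the matched plate (-0.87 to -0.03, median -0.26) and 10 on the exchanged plates (median -0.14). Of the 12, 6 kept this side on every plate and by the averaged logs of both sets of cells. All genes detected as well had medians of 0.03 and 0.01, and their share below 0 is not given.

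The mix of complexes was steady from group to group except in the olfactory bulb. Complex I took 32% of the summed mean rescaled FPKM of the 84 genes in E15.5 forebrain, 31.5% in E15.5 midbrain, 32.6% in P7 forebrain and 33.4% in P7 midbrain, but 26.7% in P7 olfactory bulb. Complex IV took 26.9%, 26.9%, 27.7%, 25.4% and 31.8%, and ATP synthase 26.6%, 27%, 25.1%, 26.1% and 27.1%. Complex II took 3.10% and 3.18% at E15.5 and 2.48%, 2.61% and 1.90% at P7. The exchanged plates had 27.6% complex I, 30.7% complex IV and 2.34% complex II in the olfactory bulb. In complex IV the most abundant gene was Cox6b1 at E15.5 (1492 ± 570 rescaled FPKM in forebrain and 1710 ± 512 in midbrain) and Ndufa4 in all P7 groups. Atp5b led ATP synthase, Uqcrq complex III and Sdhb complex II in each group.

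**Figure D5:**
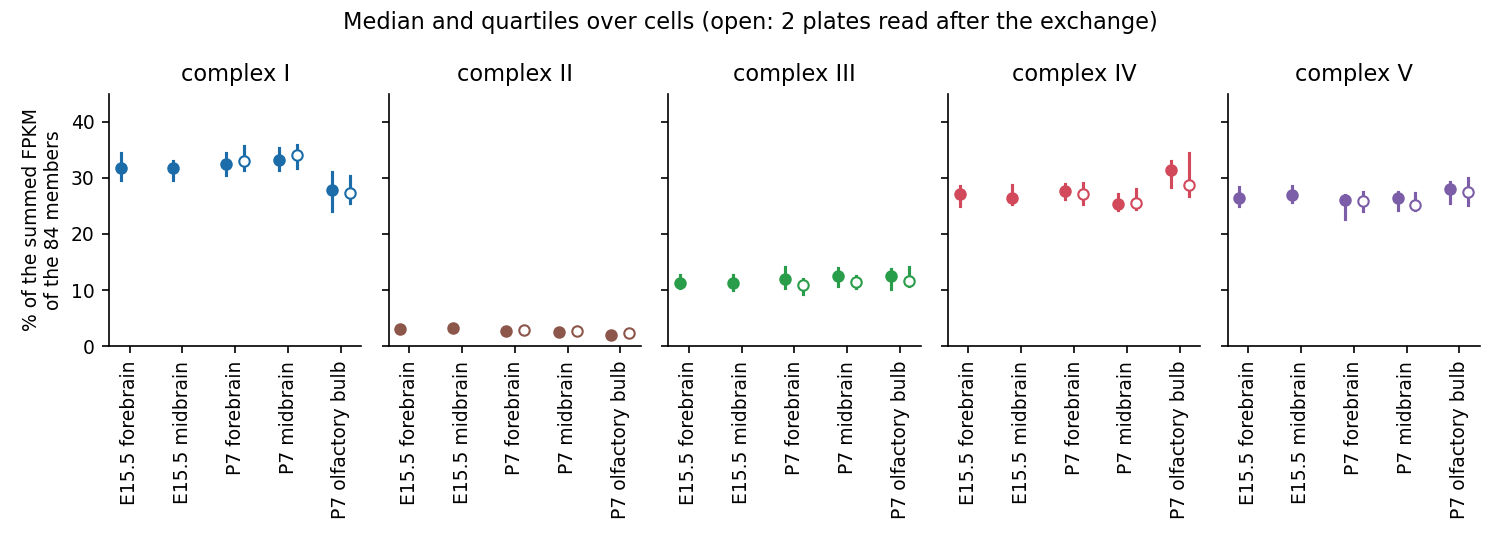
Each panel is a complex, with the percent of a cell's summed member FPKM on the vertical axis; dots are medians over cells, lines run between the quartiles, and open dots are the exchanged plates. The olfactory bulb is lowest for complex I and highest for complex IV.

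Several subunits have more than 1 gene, and most tissue-restricted forms were rare or listed at 0. Cox4i2, a form of lung and other tissues, and Cox8b and Cox8c, forms of muscle and testis, were listed at 0 in every cell. Ndufa4l2, known as a target of hypoxia signalling, was found in 1 E15.5 midbrain cell, 1 P7 forebrain cell and 2 P7 midbrain cells of the exchanged plates. Cox6a2, the heart and muscle form of the Cox6a subunit, was found in 0 of 84 and 0 of 88 E15.5 cells, in 3 of 16 and 11 of 52 olfactory bulb cells (18.8%, exact 95% binomial interval 4.05% to 45.6%, and 21.2%, 11.1% to 34.7%), in 1 of 31 and 3 of 50 forebrain cells and in 0 of 30 and 1 of 45 midbrain cells. It was found in olfactory bulb cells of each of the 3 plates (7 of 27, 3 of 16 and 4 of 25). Even there it made up 1.84% and 2.96% of the rescaled Cox6a FPKM, and 79.2% of its FPKM on the matched plate came from 1 cell.

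Cox6b2, known as the testis form of the Cox6b subunit, had the opposite distribution. It was found in 12 of 31 forebrain cells (38.7%, interval 21.8% to 57.8%) and in 6 of 30 midbrain cells (20%, 7.71% to 38.6%), in 10 of 50 and 16 of 45 on the exchanged plates, and in 0 of 16 and 1 of 52 olfactory bulb cells. Among E15.5 cells, 2 of 84 in forebrain and 9 of 88 in midbrain had it. These intervals cover the drawing of cells from the pool and no difference between animals. Cox7a2l was a smaller part of the Cox7a family in the olfactory bulb, at 17.5% and 12.8% of its rescaled FPKM, than in the other groups, at 24.1% to 28.9%. Among the 3 genes for the c-ring protein, which encode the same mature protein, Atp5g1 took 32.7% and 34.6% at E15.5 and 38.8% to 42.9% at P7, while Atp5g3 took 48.7% and 49.4% at E15.5 and 42% to 44.8% at P7. Near-identical copies and pseudogenes can share reads with these genes, and no source used here says how such reads were assigned, so values split among the c-ring genes are uncertain.

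The share was also taken for the 13 clusters of the labels. The median coding share was 3.79% and 3.65% in the E15.5 forebrain clusters (60 and 24 cells) and 4.03% and 3.91% in those of E15.5 midbrain (68 and 20 cells), over all plates. In P7 forebrain it was 5.21% (26 cells) and 5.46% (55 cells). The 4 P7 midbrain clusters had 4.92% (39 cells), 5.72% (11 cells), 4.71% (10 cells) and 5.56% (15 cells), and the 3 of the olfactory bulb 6.47% (20 cells), 6.29% (33 cells) and 7.41% (15 cells). Each range of cells overlapped its neighbours. Ndufa4 was at a mean of 2800 rescaled FPKM in the P7 midbrain cluster of 11 cells and at 1954, 2095 and 2077 in those of 39, 10 and 15 cells. Cox6b2 was found in 38.2% of the P7 forebrain cluster of 55 cells and 3.85% of that of 26 cells, and in 60% of the P7 midbrain cluster of 15 cells. The clusters came from the same transcriptomes, so no difference between them is a test.

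Other genes of energy metabolism were set beside the subunits from lists written for this tissue. The 13 mitochondrially encoded subunits had rescaled P7 over E15.5 medians of 0.74 in forebrain and 0.87 in midbrain, and 1.12 and 1.81 on the exchanged plates, with 4 and 4 at least 2-fold higher and 0 lower on the matched plate, where 17.5% and 14.6% of all genes were higher and 25.9% and 25.4% lower in the 2 regions. The 16 glycolysis genes had 0.80 and 0.42 (6 and 3 higher, 1 and 1 lower), and 0.43 and 0.18 on the exchanged plates. The 17 genes of the TCA cycle and pyruvate dehydrogenase had 0.56 and 0.29 (3 and 2 higher, 1 and 0 lower). The 49 assembly factors had 0.16 and 0.09, and the 77 cytosolic ribosomal proteins 0.23 and -0.20. Forebrain over olfactory bulb gave -0.64 for glycolysis, -0.53 for the TCA cycle, -0.20 for the mitochondrially encoded genes and 0.36 for the ribosomal proteins. The list of subunits was thus accompanied by glycolysis and TCA genes in direction, and the ribosomal proteins were not in that direction in the olfactory bulb.

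Of 20 regulators of mitochondrial genes, 11 were 2-fold lower in P7 than in E15.5 midbrain and 0 higher (10 and 0 on the exchanged plates), with a rescaled median of -1.21, where 14.6% of all genes were higher and 25.4% lower. In forebrain 3 were higher and 8 lower (5 and 7 on the exchanged plates), with a median of -0.47, against 17.5% and 25.9% of all genes. Ppargc1a, the coactivator PGC-1alpha known to drive mitochondrial genes, was highest in the olfactory bulb, with 100 ± 137, 110 ± 158 and 153 ± 182 rescaled FPKM on the 3 plates, found in 55.6%, 62.5% and 76% of cells. In the other groups its plate means were 4.53 to 30, found in 9.68% to 42.9%. Nrf1, a transcription factor for nuclear mitochondrial genes, was at 52.5 to 65.3 in the E15.5 groups and at 2.77 to 14.4 in P7 forebrain and midbrain, and its olfactory bulb plates gave 57.6, 39.6 and 2.58, the middle value with 95.3% of the gene's FPKM in 1 cell. Esrra, an estrogen-related receptor that acts with PGC-1alpha, was at 10.9, 30.9 and 17.6 in olfactory bulb and at 0.392 to 4.94 elsewhere. Slc25a5, which exchanges ATP for ADP across the inner membrane, was at 1595, 1226 and 1316 in olfactory bulb and at 313 to 626 elsewhere. Cycs, the electron carrier cytochrome c, was at 357 to 569 in olfactory bulb, 183 to 259 in the other P7 groups and 120 to 161 at E15.5. Many of these cells have no value for the regulators, so their means rest on few cells. Dissociation-response genes moved with the groups as well: their summed FPKM had medians of 466 and 343 in E15.5 forebrain and midbrain, 31.7 and 56.6 at P7 and 562 in the olfactory bulb, with 38.2, 18.3 and 90.2 on the exchanged plates, and their part in the differences was not tested.

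Promoters are shown for 4 genes whose data differed: Ndufa4 and Atp5l, highest in olfactory bulb, Ndufa6, higher at P7 in all plate pairs, and Cox6a1, which was not. The sequences are the 250 bases before the annotated start on the minus strand, from RefSeq on GRCm38.p6, and capitals mark matches on either strand to GCATGCGC (the core of the NRF1 site), CCGGAAG (an ETS site, bound by GABP among others) or AAGATGGC (a YY1 site).
Ndufa4, chr6:11907451-11907700: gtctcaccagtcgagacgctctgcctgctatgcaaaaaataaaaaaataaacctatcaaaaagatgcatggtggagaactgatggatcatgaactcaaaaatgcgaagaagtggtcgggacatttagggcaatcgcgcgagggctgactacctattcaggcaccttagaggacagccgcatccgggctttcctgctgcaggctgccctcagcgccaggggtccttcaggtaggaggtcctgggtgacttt
Atp5l, chr9:44920743-44920992: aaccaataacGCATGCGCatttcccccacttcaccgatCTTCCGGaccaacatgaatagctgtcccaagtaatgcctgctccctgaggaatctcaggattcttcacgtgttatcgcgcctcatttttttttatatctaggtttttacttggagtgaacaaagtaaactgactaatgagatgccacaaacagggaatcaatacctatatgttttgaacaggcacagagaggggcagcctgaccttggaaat
Ndufa6, chr15:82354292-82354541: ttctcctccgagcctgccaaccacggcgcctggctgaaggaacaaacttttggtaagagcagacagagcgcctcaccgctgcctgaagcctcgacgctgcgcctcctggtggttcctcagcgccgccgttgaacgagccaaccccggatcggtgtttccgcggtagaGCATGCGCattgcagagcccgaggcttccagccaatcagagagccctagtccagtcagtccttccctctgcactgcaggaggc
Cox6a1, chr5:115348959-115349208: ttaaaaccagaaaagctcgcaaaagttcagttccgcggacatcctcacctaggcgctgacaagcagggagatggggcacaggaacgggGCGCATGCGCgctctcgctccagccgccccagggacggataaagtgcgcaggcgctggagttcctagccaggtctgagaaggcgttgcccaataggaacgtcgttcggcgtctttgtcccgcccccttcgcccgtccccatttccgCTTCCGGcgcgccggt
Ndufa4 held no match, Atp5l an NRF1 and an ETS match, Ndufa6 an NRF1 match, and Cox6a1 an ETS match and 2 NRF1 matches that overlap on opposite strands. Of the 66 members with a RefSeq promoter, 8 held the NRF1 letters (12.1%, against 3.32% of 17492 genes), 12 the ETS letters (against 10.2% of genes) and 1 the YY1 letters (1.52%, against 1.77%). A match is a description of the sequence only.

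The genes most like the summed member share were sought over the 13 means of a group on a plate, among 4364 genes, and the points share plates and pools. With cells scaled to a common total of all features, the nearest were Gapdh (Spearman rho 0.967), the processed pseudogene Gm10250 (0.934), Hcfc1r1 (0.929), Eme2 (0.912) and Tpm1 (0.907). On the nuclear protein-coding total they were Slc25a4 (0.989), Syn2 (0.956), Mrfap1 (0.951), Usmg5 (0.945) and Atp6v1g2 (0.940). Of these, Usmg5 is a subunit gene that the choice by symbol left out. No gene was among the first 5 on both scales.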

How the data were processed

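Poly(A) RNA of single sorted cells was measured with Smart-Seq2, with 20 preamplification and 14 enrichment cycles, per the labels' protocols. The authors deposited FPKM values made with HISAT2 and Cuffnorm on mm10, per the submitters' processing notes; versions and annotation are not given in the sources used here. FPKM is per length, and how each cell was scaled is not known; the values are not counts, so the depth per cell is unknown and the labels' gene number stands in for it. Symbols and coordinates come from GENCODE M21 (GRCm38), which matched 28636 of 28952 features, 20508 at the same version (52 of the 84 members). No doublet caller was run, since cells were sorted singly.

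The 84 members and all gene lists were chosen with earlier results of these data known. For 6 comparisons, log2((mean + 1)/(mean + 1)) was computed over cells that passed quality control, for genes with a mean of at least 1 FPKM in either group, and a gene at least 2-fold apart was counted. Members are named where they were the 5 highest or lowest, or past 2-fold, at a mean of at least 20 and found in at least 50% of cells; Ndufa4, Cox6c, the isoforms, the complex I core, the Sdh genes, Atp5a1 and Atp5b are named in any case, and other genes were chosen after their values were seen. Some values that this rule names are not reported here. With 1 pool per group no test was made. Scaling to all features, to all but mitochondrially encoded features or (added) to nuclear protein-coding features, other pseudocounts, filters, cells and plates were the alternatives. The design took P7 plates by column name; 2 plates were read after their columns were exchanged. On resampled P7 forebrain cells with set folds, the fold script returned those folds relative to the same cells without them. That outcome follows from the arithmetic, so it checks the formula only and not the precision of the folds. Python 3.11.15, numpy 2.4.6, pandas 2.3.3, scipy 1.17.1 and matplotlib 3.10.9 were used.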

Additional observations from a re-analysis of the deposited data

How the results depend on the processing

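Of 263 values recomputed under another setting, 186 kept their main value within 1 SD or 1.5 times and 77 moved. The SD was over members for median folds and over cells for shares, and 1.5 times was the limit for counts. A kept value can therefore still differ, and this rule does not measure precision. On the name-matched plates the scaling of cells decided the direction with age. The median log2 fold of the members at P7 over E15.5, -0.59 in forebrain and -0.65 in midbrain as deposited, was 0.56 and 0.33 with each cell scaled to a common total, 0.58 and 0.34 without mitochondrially encoded features and 0.65 and 0.40 on the nuclear protein-coding total. The counts of members 2-fold higher were 11 and 5 on each of the first 2 totals and 15 and 8 on the last. On these totals 0 were 2-fold lower, except 1 in midbrain on the last. On the exchanged plates with a common total, midbrain members went both ways. Mean scaled FPKM at P7 and E15.5 was 1289 and 1887 for Atp5b and 463 and 312 for Ndufc1. No median of these plates on the first 2 totals is given. From the exchanged plates alone, as deposited, the medians were -2.12 and -2.13 with 75 and 75 members lower and 0 higher in forebrain, and from all 3 P7 plates -1.33 and -1.38 with 61 and 62 lower. A pseudocount of 10 or a minimum mean of 20 left 0 higher in forebrain, averaging logs left 7 and 4 lower, and the 2 E15.5 plates taken alone gave 26 and 6 lower in midbrain, with 1 higher on the former.

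Averaged logs also changed the olfactory bulb comparisons most, to 23 members higher and 3 lower in midbrain and to 14 higher and 4 lower in forebrain. Without the highest cell of each gene 6 and 3 members were lower and 2 were higher in midbrain, with failed cells 7 and 3 were lower, on the exchanged plates 2 and 1, and on all 3 plates 3 and 1. A minimum mean of 20 left 0 higher in midbrain. In forebrain 1 in place of 2 was higher on each of the 3 totals, with a pseudocount of 10, a minimum of 20, failed cells, the exchanged plates and all 3 plates. Between P7 midbrain and forebrain, 1 member was higher by averaged logs or on the exchanged plates, and 0 were lower with a pseudocount of 10 or a minimum of 20 and 2 with failed cells or all 3 plates. At E15.5, 2 members were higher in midbrain with a pseudocount of 0.1 or on the first plate, 1 without the highest cell of each gene or on the second plate and 3 on the nuclear protein-coding total, and 1 was lower with failed cells.

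The member share moved from medians of 3.35%, 3.52%, 4.79% and 4.37% to 4.02%, 4.29%, 5.77% and 5.41% in E15.5 forebrain and midbrain and P7 forebrain and midbrain when the 20 largest other features were left out of the total. It was 5.57% and 5.15% in P7 forebrain and midbrain on the nuclear protein-coding total, 3.41% and 3.37% on the exchanged plates and 3.93% in forebrain on all 3 plates. The cause of these changes was not tested beyond the choice of total itself. No paired analysis was possible because each group is 1 pool of animals and no result comes from a test. The number of cells per group, 16 for the olfactory bulb, and the unknown depth limit the precision.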
